A study of Mus musculus with 6 samples.

Results

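The genes described here code for 8 pumps and exchangers that move sodium, potassium and calcium ions across neuronal membranes: *Atp1b1*, *Atp2a2*, *Atp2b1*, *Atp2b2*, *Atp2b4*, *Slc8a1*, *Slc8a2* and *Slc24a2*. They were chosen by name, through their mouse gene symbols, from 31053 genes with a value in every library. The choice was made with earlier results of these data known. Of the 8 genes, 7 were edited in all 6 libraries and entered the test across genes, which covered 8046 genes. *Slc8a1* was listed at 0 in RPL22-STAMP replicate 3 and was left out of that test.

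Ribo-STAMP marks mRNA on ribosomes. A ribosomal protein is fused to rAPOBEC1, a cytidine deaminase, so that C-to-U edits are left on RNA near the ribosome, and the measure is EPR, the edits of a gene divided by its reads. The libraries came from cortical neurons of wild-type C57BL/6J mouse embryos at embryonic day 18, with 3 libraries of neurons infected with AAV-RPL10A-STAMP and 3 of neurons infected with AAV-RPL22-STAMP. RPL10A-STAMP carries rAPOBEC1 on mouse RPL10A and RPL22-STAMP on mouse RPL22, both proteins of the large ribosomal subunit. In both groups floxuridine, which limits dividing cells, was added at DIV 3 (day in vitro), virus was added at DIV 6, Dox (doxycycline) was present at 1 µg per ml for 48 h, and RNA was collected at DIV 14. A synapsin promoter drove the Dox-dependent activator, a design meant for expression in neurons, and the neurons kept their own *Rpl10a* and *Rpl22* genes. Libraries without virus or Dox were not analysed here, so the values have no editing background subtracted or set beside them. In a bulk library, more edits in each cell and more cells that carry the editor cannot be told apart. The authors' methods name 3 biological replicates, while their text on the reproducibility of the variants speaks of technical replicates. The labels do not tie replicates to separate cultures, so p-values measure the spread between these libraries, which may be technical.

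Neurons spend much of their ATP on restoring ion gradients after electrical activity. The sodium pump exchanges sodium for potassium at the plasma membrane, with a catalytic alpha subunit and a beta subunit, such as the one coded by *Atp1b1*, that the complex needs to fold and to reach the membrane. Calcium is removed from the cytosol by the SERCA pump of the endoplasmic reticulum (*Atp2a2*), by the PMCA pumps of the plasma membrane (*Atp2b1*, *Atp2b2*, *Atp2b4*), by the sodium-calcium exchangers (*Slc8a1*, *Slc8a2*) and by a potassium-dependent sodium-calcium exchanger (*Slc24a2*). The pumps bind calcium tightly and spend ATP, whereas the exchangers draw on the sodium gradient and move more ions per unit of time.

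The calcium pumps are P-type ATPases, which are phosphorylated at an aspartate during every transport cycle. The 21 bases that code for this aspartate and the residues after it are shown to compare the pumps in a stretch of coding sequence they share, and because the cytidines in them are of the kind the editor can act on. Capitals mark cytidines that follow A or T (U in the RNA), the base context that rAPOBEC1 is known to prefer. The sequences are in the sense of the mRNA, with coordinates on GRCm38.
*Atp2a2*, chr5:122469374-122469394, minus strand: gataagaCaggcaCaCttaCc
*Atp2b1*, chr10:98999817-98999837, plus strand: gataaaaCaggaaCcctgaCg
*Atp2b2*, chr6:113789897-113789917, minus strand: gaCaagaCaggaaCgctgaCc
*Atp2b4*, chr1:133731807-133731827, minus strand: gataagaCaggcaCaCtgaCc
*Atp2b4* shares 20 of the 21 bases with *Atp2a2*, *Atp2b2* shares 17 and *Atp2b1* shares 16. *Atp2a2*, *Atp2b2* and *Atp2b4* have 4 cytidines after A or T in this stretch and *Atp2b1* has 3. The deposited values give 1 ratio per gene, and which of these cytidines were edited was not measured here.

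EPR differed in overall level between libraries. The median over the genes edited in all 6 libraries ranged from 0.0120 to 0.0161 with RPL10A-STAMP and from 0.00907 to 0.0129 with RPL22-STAMP, and each library had 9892 to 11195 edited genes. The reads behind each ratio are unknown, so no counting error can be given, and an EPR of 0 can mean no edits or no reads. The 6 neuronal markers were edited in every library, with a summed EPR of 0.0986 to 0.128. The sum hides opposite differences between the editors. *Syn1* was at 0.0176 to 0.0208 with RPL10A-STAMP and 0.0286 to 0.0374 with RPL22-STAMP. *Map2* was at 0.0230 to 0.0301 and 0.0122 to 0.0169, and the other neuronal markers overlapped. Of the 5 astrocyte markers, 4 or 5 were edited, with a summed EPR of 0.132 to 0.177 with RPL10A-STAMP and 0.120 to 0.187 with RPL22-STAMP. Of the 6 markers of oligodendrocytes and their precursors, 2 to 4 were edited (summed EPR 0.0175 to 0.115 and 0.0762 to 0.0957), and 0 or 1 of the 5 microglial markers. Of the microglial markers, *P2ry12*, *Csf1r* and *Aif1* were at 0 in all 6 libraries. *Cx3cr1* was edited in 2 libraries (EPR 0.0143 and 0.0364) and *C1qa* in 1 (0.0714). EPR is not a measure of RNA level, and the part of other cell types in the results was not tested. The comparison of the editors was made on EPR as deposited, on EPR relative to the median gene of the same library, and with limma on log2(EPR + 0.01) after the libraries were brought to the same median. The log2 fold changes are RPL10A-STAMP over RPL22-STAMP on this last scale, which understates changes, most of all for genes with low EPR. The added 0.01 is about as large as the EPR of the median gene, so typical genes are affected too. The log2 fold changes of the 7 tested genes ranged from -0.46 to 0.50 with it. Without it they ranged from -0.76 (*Slc8a2*) to 0.70 (*Slc24a2*), and 0 passed an adjusted p of 0.05 in limma either way.

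*Atp1b1* (ENSMUSG00000026576, chr1:164437109-164458355, minus strand) codes for the main beta subunit of the neuronal sodium pump. Its EPR was 0.0194, 0.0195 and 0.0197 in the RPL10A-STAMP libraries and 0.0141, 0.0151 and 0.0176 in the RPL22-STAMP libraries. The RPL10A-STAMP libraries all lay above the RPL22-STAMP libraries and were close to each other, at 0.0195 ± 0.000140 (SD, n = 3) against 0.0156 ± 0.00181 (SD, n = 3). The ratio of the means was 1.25, close to the median ratio of 1.27 over the tested genes, and the two-sided exact permutation test gave p = 0.10, and no smaller p can be reached with 3 libraries per editor. Relative to the median gene the groups overlapped, at 1.22 to 1.62 times the median gene with RPL10A-STAMP and 1.17 to 1.57 times with RPL22-STAMP. The limma log2 fold change was -0.04 ± 0.15 (SE, n = 3 against 3), with a 95% interval from -0.38 to 0.31 and an adjusted p of 0.892. It was 0.21 without scaling of the libraries. *Nme7*, on the opposite strand, overlaps 18.7% of the exonic bases of *Atp1b1*, and 18.9% of the runs of 50 bases in the *Atp1b1* transcript also occur in *Nme7* transcripts, in either orientation. *Nme7* had an EPR of 0.0119, 0.0199 and 0.0108 in the RPL10A-STAMP libraries and 0.00604, 0.00726 and 0.00241 in the RPL22-STAMP libraries. The libraries were made with a stranded kit, but whether reads were counted by strand is not given in the sources used here, so the *Atp1b1* values may include reads of *Nme7*.

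*Atp2a2* (ENSMUSG00000029467, chr5:122453513-122502225, minus strand) codes for SERCA2, which fills the endoplasmic reticulum with calcium. Its EPR was 0.0236, 0.0277 and 0.0308 in the RPL10A-STAMP libraries and 0.0209, 0.0285 and 0.0328 in the RPL22-STAMP libraries. The groups overlapped along nearly their whole range, with means of 0.0273 ± 0.00364 and 0.0274 ± 0.00603 (SD, n = 3 each) and an exact permutation p of 1. Since 66.8% of the tested genes had a higher mean EPR with RPL10A-STAMP, a nearly equal EPR placed *Atp2a2* lower among genes there, at 1.81 to 1.97 times the median gene against 2.21 to 2.92 times with RPL22-STAMP, without overlap. Its percentile among the tested genes was 75.9 to 79.8 with RPL10A-STAMP and 86.1 to 90.2 with RPL22-STAMP. The limma log2 fold change was -0.28 ± 0.14 (SE), with a 95% interval from -0.60 to 0.05 and an adjusted p of 0.228, and it was 0.01 without scaling.

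**Figure D1:**
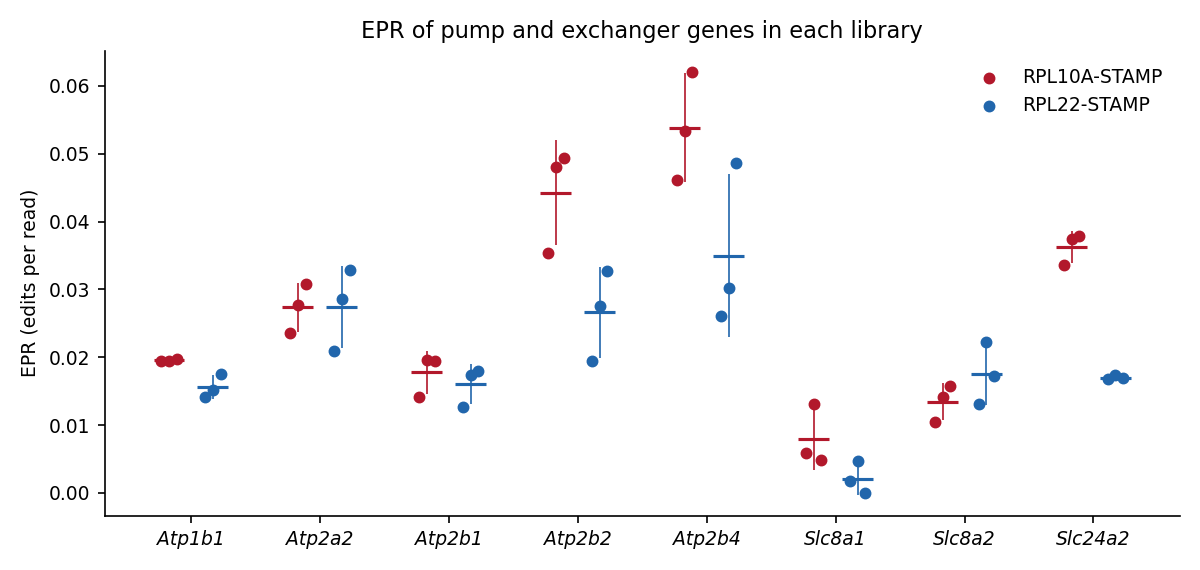
EPR (edits per read, vertical axis) of the 8 genes in each library, with RPL10A-STAMP in red and RPL22-STAMP in blue. Points are the 3 libraries of each editor, horizontal bars their means and vertical lines 1 SD. *Slc24a2* lies at 0.0335 to 0.0379 with RPL10A-STAMP and 0.0168 to 0.0173 with RPL22-STAMP, while *Atp2a2* has nearly equal means.

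The 3 PMCA genes differed in level and in how they compared between the editors. *Atp2b1* (ENSMUSG00000019943, chr10:98914406-99026143, plus strand) codes for PMCA1, which most cell types use. Its EPR was 0.0141, 0.0196 and 0.0194 in the RPL10A-STAMP libraries and 0.0126, 0.0174 and 0.0180 in the RPL22-STAMP libraries. These groups overlapped, with a ratio of means of 1.11 and an exact permutation p of 0.50. Relative to the median gene, *Atp2b1* was at 1.182 to 1.287 with RPL10A-STAMP and 1.351 to 1.601 with RPL22-STAMP, without overlap. In limma the log2 fold change was -0.15 ± 0.12 (SE), with a 95% interval from -0.44 to 0.14 and an adjusted p of 0.453, and it was 0.09 without scaling.

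*Atp2b2* (ENSMUSG00000030302, chr6:113743831-114042613, minus strand) codes for PMCA2, a fast pump of neurons and of the sensory cells of the inner ear. Its EPR was 0.0353, 0.0481 and 0.0493 in the RPL10A-STAMP libraries and 0.0195, 0.0276 and 0.0327 in the RPL22-STAMP libraries. Every RPL10A-STAMP library was above every RPL22-STAMP library, although the lowest and the highest of them were near each other. The means were 0.0442 ± 0.00775 and 0.0266 ± 0.00670 (SD, n = 3 each), a ratio of 1.66, with an exact permutation p of 0.10. The groups did not overlap relative to the median gene either, at 2.95 to 3.15 and 2.14 to 2.91. Its log2 fold change in limma was 0.28 ± 0.15 (SE), with a 95% interval from -0.07 to 0.62 and an adjusted p of 0.248, and it was 0.57 without scaling (adjusted p = 0.133).

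*Atp2b4* (ENSMUSG00000026463, chr1:133699457-133801041, minus strand) codes for PMCA4. Its EPR was 0.0461, 0.0534 and 0.0621 in the RPL10A-STAMP libraries and 0.0260, 0.0302 and 0.0486 in the RPL22-STAMP libraries. RPL22-STAMP replicate 3 lay above the lowest RPL10A-STAMP library, and the other two libraries of that group lay well below all 3. The means were 0.0538 ± 0.00801 and 0.0349 ± 0.0120 (SD, n = 3 each), a ratio of 1.54, with an exact permutation p of 0.20. In limma the log2 fold change was 0.22 ± 0.20 (SE), with a 95% interval from -0.25 to 0.69 and an adjusted p of 0.500. It was 0.06 without RPL22-STAMP replicate 2 and 0.42 without RPL22-STAMP replicate 3, 0.00084 with the length trend removed and 0.53 without scaling, and no alternative passed the threshold. The groups also overlapped relative to the median gene, at 3.50 to 3.85 with RPL10A-STAMP and 2.34 to 4.32 with RPL22-STAMP. *Atp2b4* had the highest EPR of the 8 genes in each of the 6 libraries, between the 87.6 and 95.5 percentiles of the tested genes.

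In a ratio of paralogs within a library, a factor common to all genes of that library cancels. The ratio of *Atp2b2* to *Atp2b1* was 2.496, 2.447 and 2.536 in the RPL10A-STAMP libraries and 1.54, 1.58 and 1.82 in the RPL22-STAMP libraries. The RPL10A-STAMP ratios were nearly constant, at 2.49 ± 0.0449 against 1.65 ± 0.151 (SD, n = 3 each), and the groups did not overlap. The difference was 0.60 on the log2 scale, with a two-sided exact permutation p of 0.10 (0.15 after Benjamini-Hochberg adjustment over the 3 ratios tested). The ratio of *Atp2b4* to *Atp2b1* was 3.26, 2.72 and 3.19 in the RPL10A-STAMP libraries and 2.06, 1.73 and 2.70 in the RPL22-STAMP libraries, again without overlap, although RPL22-STAMP replicate 3 came close to the other group. Its log2 difference was 0.52, with an exact permutation p of 0.10 (adjusted 0.15). With 0.01 added after scaling, the groups overlapped for this ratio (p = 0.20, exact permutation test). The ratio of *Atp2b4* to *Atp2b2* overlapped between the editors, at 1.11 to 1.30 and 1.09 to 1.48, with an exact permutation p of 0.60 (adjusted 0.60). These 3 genes kept the order *Atp2b4*, *Atp2b2*, *Atp2b1* in every library. The fourth PMCA gene, *Atp2b3*, had an EPR of 0.0185, 0.0213 and 0.0188 in the RPL10A-STAMP libraries and 0.0128, 0.0115 and 0.00852 in the RPL22-STAMP libraries, above *Atp2b1* in 3 of the 6 libraries and below it in the other 3.

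**Figure D2:**
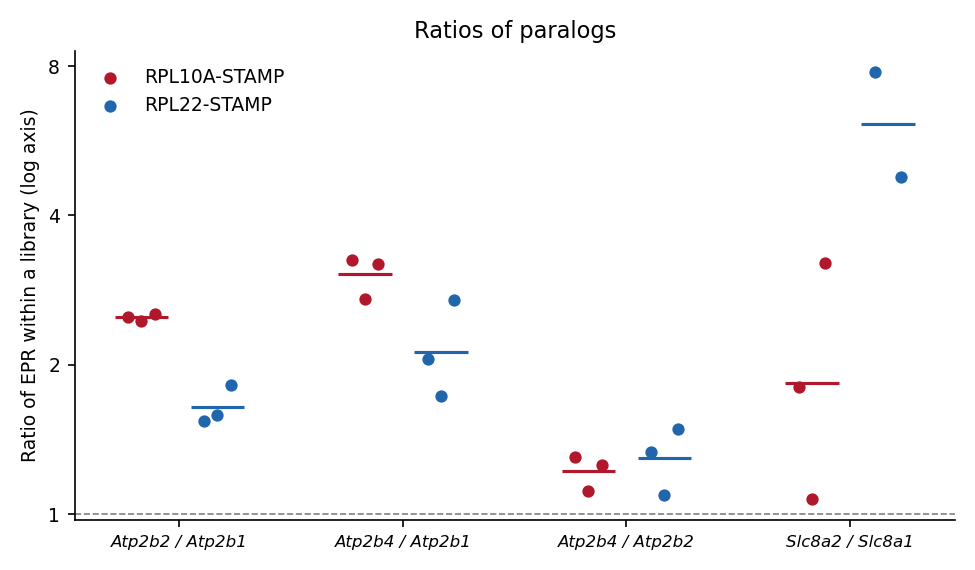
Ratios of EPR between paralogs within each library (vertical log axis), with RPL10A-STAMP in red and RPL22-STAMP in blue. Points are libraries and bars geometric means; the ratio of *Slc8a2* to *Slc8a1* has 2 RPL22-STAMP points because *Slc8a1* was at 0 in replicate 3. The *Atp2b2* to *Atp2b1* ratio lies at 2.45 to 2.54 with RPL10A-STAMP and at 1.54 to 1.82 with RPL22-STAMP.

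The sodium-calcium exchanger genes *Slc8a1* and *Slc8a2* code for NCX1, best known from heart muscle and also present in brain, and NCX2, which is enriched in brain. *Slc8a1* (ENSMUSG00000054640, chr17:81373105-81738377, minus strand) had an EPR of 0.00581, 0.0132 and 0.00490 in the RPL10A-STAMP libraries and 0.00169, 0.00465 and 0 in the RPL22-STAMP libraries. It was the lowest of the 8 genes in every library. All RPL10A-STAMP values were higher, but the lowest of them was close to the highest RPL22-STAMP value, and the exact permutation p was 0.10. Relative to the median gene the groups overlapped, at 0.303 to 0.863 and 0 to 0.360. In a test of every gene with edits in 3 or more libraries, its limma log2 fold change was 0.46 ± 0.22 (SE), with a 95% interval from -0.09 to 1.00 and an adjusted p of 0.281. In that test 6.91% of 10909 genes passed.

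*Slc8a2* (ENSMUSG00000030376, chr7:16129826-16161063, plus strand) had an EPR of 0.0105, 0.0141 and 0.0157 in the RPL10A-STAMP libraries and 0.0131, 0.0223 and 0.0172 in the RPL22-STAMP libraries. It had the lowest ratio of means among the 8 genes, with 0.0134 ± 0.00268 and 0.0175 ± 0.00458 (SD, n = 3 each), a mean 1.30 times higher with RPL22-STAMP. On EPR as deposited the groups overlapped, with an exact permutation p of 0.30, and the difference in mean EPR of -0.00410 ranged from -0.00630 to -0.00173 when 1 library was left out. Relative to the median gene they did not, at 0.876 to 0.974 with RPL10A-STAMP and 1.45 to 1.73 with RPL22-STAMP, so that the gene lay just under the median gene in one group and above it in the other. The limma log2 fold change was -0.46 ± 0.12 (SE), with a 95% interval from -0.75 to -0.16 and an adjusted p of 0.0516, just outside the threshold of 0.05. The adjusted p was 0.0393 with scaling by the upper quartile and 0.0320 with a trend of EPR with transcript length removed, where 14.1% of genes passed with the former and 6.01% passed as higher with RPL22-STAMP with the latter. It was 0.613 with a trend with GC content removed, where the log2 fold change was -0.11, and 0.509 without scaling, where it was -0.23. With the replicate number as a block the adjusted p was 0.110, and in the 6 fits that left out 1 library it was 0.0756 to 0.140.

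The ratio of *Slc8a2* to *Slc8a1* was 1.80, 1.07 and 3.21 with RPL10A-STAMP and 7.78 and 4.79 in RPL22-STAMP replicates 1 and 2, and could not be formed in replicate 3. The RPL22-STAMP ratios divide by *Slc8a1* values of 0.00169 and 0.00465, which very few edits could give. With 0.01 added after scaling, which lets all 6 libraries enter, the groups did not overlap and the mean log2 ratio, RPL10A-STAMP minus RPL22-STAMP, differed by -0.91, with a two-sided exact permutation p of 0.10 (0.20 after adjustment over the 4 ratios on that scale).

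*Slc24a2* (ENSMUSG00000037996, chr4:86983124-87230477, minus strand) codes for NCKX2, a neuronal exchanger that uses both the sodium and the potassium gradient to remove calcium. Its EPR was 0.0335, 0.0374 and 0.0379 in the RPL10A-STAMP libraries and 0.0168, 0.0173 and 0.0169 in the RPL22-STAMP libraries. The groups were far apart compared with their spread, at 0.0363 ± 0.00237 and 0.0170 ± 0.000300 (SD, n = 3 each), a ratio of 2.13. Of the tested genes, 18.9% had a larger ratio of means. The exact permutation p was 0.10, the smallest possible. The gene was at the 84.3 to 89.2 percentiles of the tested genes with RPL10A-STAMP and at the 66.2 to 80.1 percentiles with RPL22-STAMP. The limma log2 fold change was 0.50 ± 0.14 (SE), with a 95% interval from 0.16 to 0.84 and an adjusted p of 0.0605. Without scaling it was 0.78, with an adjusted p of 0.0266, where 13.5% of genes passed, and with the GC trend removed it was 0.27, with an adjusted p of 0.288. In the 6 fits without 1 library its adjusted p was 0.0575 to 0.154, and a replicate block gave 0.0934.

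**Figure D3:**
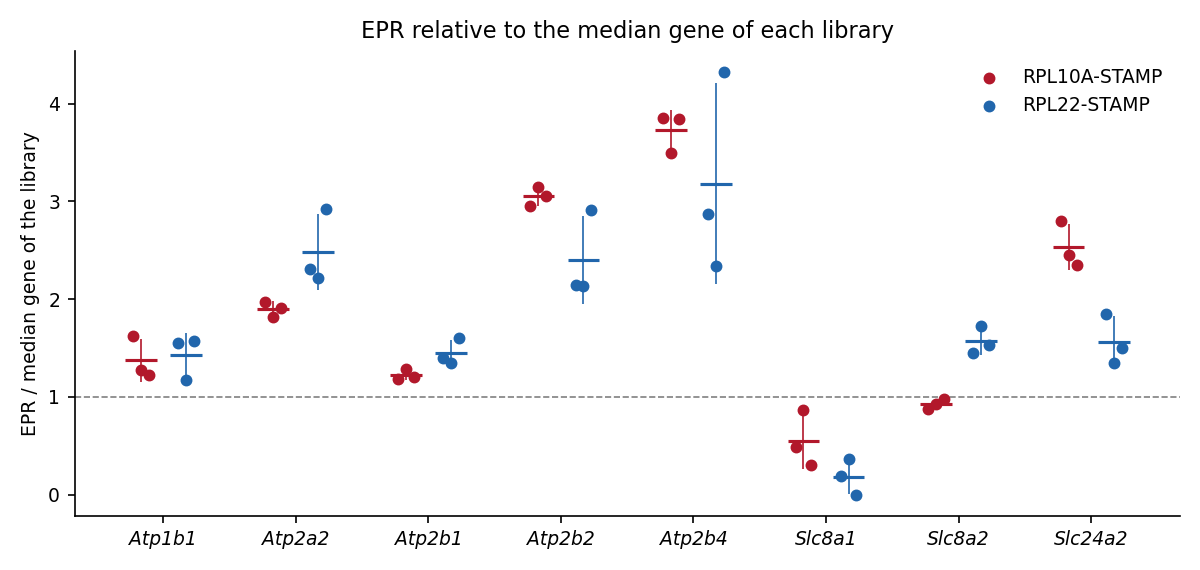
EPR of the 8 genes divided by the EPR of the median gene of the same library (vertical axis), with RPL10A-STAMP in red and RPL22-STAMP in blue. Points are libraries, horizontal bars means and vertical lines 1 SD, and the dashed line marks the median gene. *Slc24a2* and *Atp2b2* are higher with RPL10A-STAMP and *Atp2a2*, *Atp2b1* and *Slc8a2* with RPL22-STAMP, without overlap.

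Over the 8 genes, mean EPR as deposited was higher with RPL10A-STAMP for 6, and for 4 of the 8 (*Atp1b1*, *Atp2b2*, *Slc8a1* and *Slc24a2*) the libraries did not overlap. Of all tested genes, 28.2% had all RPL10A-STAMP libraries above all RPL22-STAMP libraries and 6.21% the opposite, which none of the 8 genes had. These shares are over genes edited in all 6 libraries, among which 3 of the 7 genes did not overlap, since *Slc8a1* was at 0 in 1 RPL22-STAMP library and is not among them. The permutation p-values of the 8 genes ranged from 0.10 to 1, and from 0.20 to 1 after Benjamini-Hochberg adjustment over them. Relative to the median gene, 2 genes were higher with RPL10A-STAMP without overlap (*Atp2b2* and *Slc24a2*), where 20.0% of tested genes were, and 3 with RPL22-STAMP (*Atp2a2*, *Atp2b1* and *Slc8a2*), where 17.1% were. In the limma test 0 of the 7 genes passed an adjusted p of 0.05, where 14.3% of the tested genes passed, 8.51% as higher with RPL10A-STAMP and 5.77% as higher with RPL22-STAMP. At an unadjusted p under 0.05, limma passed 2 of the 7 (*Slc24a2* and *Slc8a2*), against 30.9% of all tested genes. The median log2 fold change of the 7 genes was -0.036 and that of all tested genes -0.012.

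The order of the genes by mean EPR was *Atp2b4*, *Atp2b2*, *Slc24a2*, *Atp2a2*, *Atp1b1*, *Atp2b1*, *Slc8a2*, *Slc8a1* with RPL10A-STAMP. Neighbours in that order did not overlap at *Slc24a2* and *Atp2a2* and at *Atp2a2* and *Atp1b1*, and the other neighbours overlapped. Within libraries, the gene of higher mean was higher in all 3 RPL10A-STAMP libraries for every pair of neighbours except *Atp1b1* and *Atp2b1*, where it was higher in 2. With RPL22-STAMP the order was *Atp2b4*, *Atp2a2*, *Atp2b2*, *Slc8a2*, *Slc24a2*, *Atp2b1*, *Atp1b1*, *Slc8a1*, in which only *Atp1b1* and *Slc8a1* did not overlap. Within libraries, *Atp2b4* was above *Atp2a2*, *Atp2a2* above *Atp2b2*, *Atp2b2* above *Slc8a2* and *Atp1b1* above *Slc8a1* in all 3 RPL22-STAMP libraries, whereas the order of *Slc8a2*, *Slc24a2*, *Atp2b1* and *Atp1b1* differed between libraries. The middle of the RPL22-STAMP order was tight, with means from 0.0156 to 0.0175 for *Slc8a2*, *Slc24a2*, *Atp2b1* and *Atp1b1*. *Slc24a2* was the third of the 8 with RPL10A-STAMP and the fifth by its mean with RPL22-STAMP. Division by reads puts genes of different length on 1 scale, but it does not correct for how many editable cytidines a read covers.

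The genes differed in sequence features that the choice by name did not use. The reference transcript, the one with the longest coding sequence, held 127 cytidines after A or U per kb for *Slc8a2*, 123 for *Atp2b2*, 120 for *Slc24a2*, 116 for *Atp2b4* and 115 for *Slc8a1*. The other three, *Atp1b1*, *Atp2b1* and *Atp2a2*, held 109, 109 and 108, and the median of the tested genes was 112. *Slc8a1* and *Slc8a2* were thus above the median of the tested genes in this density, and its relation to EPR was not tested. The annotated 3′ UTR was 8215 bases long in *Slc24a2* and 7234 in *Atp2b4*, against a median of 1295, and 243 bases long in *Atp2b2*. The reference transcript of *Atp2b2* had 4586 bases, whereas all its annotated exons cover 12612. These numbers were 7130 and 15218 for *Atp2b1* and 3180 and 18807 for *Slc8a1*, and the other genes had smaller gaps. Which transcripts the reads came from is unknown, so UTR length, GC content and cytidine density may differ from those of the RNA sequenced. *Slc8a1*, *Slc8a2* and *Slc24a2* shared no run of 50 bases with transcripts of other genes, and *Atp2b2* shared 0.154% of its runs with *Atp2b3*. *Atp2a2* shared 4.28% with transcripts of 2 other genes and *Atp2b1* shared 2.13% with those of 1 other gene. *Atp2b4* shared 1.10% of its runs, with transcripts of 407 other genes. The counting could have assigned reads from such runs to another gene.

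GC content moved with the difference between the editors over all tested genes. The Spearman rho between log2 fold change and transcript GC content was -0.467 across 8039 genes, which are not independent replicates and share the same 6 libraries. Genes below the lower quartile of GC content (44.5%) had a median log2 fold change of 0.27, and genes above the upper quartile (53.6%) one of -0.25. *Slc24a2* (43.7% GC, 0.50) and *Slc8a2* (58.5% GC, -0.46) lay on the same side as the genes of their GC content. *Atp2b1* (42.6% GC, -0.15) and *Atp2b2* (57.3% GC, 0.28) lay on the opposite side, by the GC content of the reference transcript. With the GC trend removed from each library, the limma log2 fold change was 0.59 for *Atp2b2* (95% interval 0.25 to 0.94, adjusted p = 0.0516) and -0.43 for *Atp2b1* (95% interval -0.72 to -0.13, adjusted p = 0.0845), and 8.25% of genes passed. With the replicate number also as a block the adjusted p-values were 0.102 and 0.156. *Atp2a2* (48.2% GC), *Atp1b1* (49.5% GC) and *Atp2b4* (47.8% GC) are close to the median GC content of 48.9%, and their log2 fold changes moved by less than their standard errors, to -0.30, -0.00060 and 0.17. Among the 7 genes rho was -0.32, which 7 genes cannot define well.

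**Figure D4:**
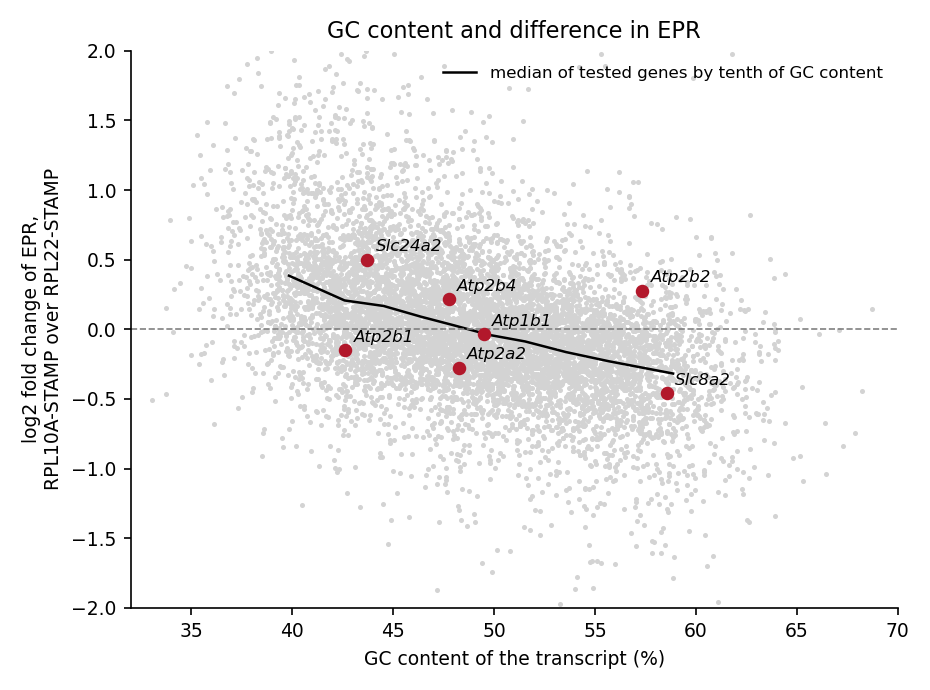
log2 fold change of EPR, RPL10A-STAMP over RPL22-STAMP (vertical axis), against GC content of the transcript in percent (horizontal axis), for 8039 tested genes in grey and the 7 tested pump and exchanger genes in red. The black line is the median in 10 bins of equal size and 30 genes lie outside the axes. *Atp2b2* lies above the line at 57.3% GC and *Atp2b1* below it at 42.6% GC.

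Around the 8 genes, 69 genes of ion pumping and calcium handling in 5 lists were examined. Of these, 38 were edited in all 6 libraries and tested, 18 were at 0 in all 6, and 3 of 38 (7.89%) passed the limma threshold, where 14.3% of all tested genes passed. Among the sodium pump partners, 9 of 17 were tested, 1 was higher with RPL10A-STAMP and 8 did not pass, with a median log2 fold change of -0.23 against -0.012 for all tested genes. The gene that passed was *Nkain2*, which codes for a membrane protein that interacts with the beta subunit of the sodium pump. Its EPR was 0.0428, 0.0466 and 0.0444 in the RPL10A-STAMP libraries and 0.0165, 0.0224 and 0.0222 in the RPL22-STAMP libraries, without overlap. Its log2 fold change was 0.57 ± 0.14 (SE, limma adjusted p = 0.0380), and 12 of 16 other settings gave an adjusted p of 0.05 or more, among them every fit without 1 of the 6 libraries (0.0740 to 0.105) and the fit with the GC trend removed (log2 fold change 0.32, adjusted p = 0.219).

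Of 9 relatives and partners of the calcium pumps 4 were tested and none passed, with a median log2 fold change of -0.018. The largest values were 0.32 for *Atp2c1*, a calcium and manganese pump of the Golgi (adjusted p = 0.213), and -0.31 for *Bsg*, which codes for basigin, a partner subunit of PMCA pumps (adjusted p = 0.271). Of 6 other calcium exchangers 2 were tested and neither passed in limma, with values of -0.39 for *Slc24a3* (adjusted p = 0.0946) and 0.12 for *Slc8a3* (adjusted p = 0.702) and a median of -0.14. *Slc24a3* codes for a relative of the *Slc24a2* exchanger, and its value had the opposite sign; the difference between the pair was not tested.

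In the list of intracellular calcium release and uptake 13 of 19 were tested, 1 was higher with RPL10A-STAMP and 12 did not pass, with a median log2 fold change of 0.12 and values from -1.10 to 0.65. *Micu3*, a brain-enriched regulator of the mitochondrial calcium uniporter, had an EPR of 0.0119, 0.0229 and 0.0171 in the RPL10A-STAMP libraries and 0.00334, 0.00766 and 0.00551 in the RPL22-STAMP libraries, without overlap. Its log2 fold change was 0.62 ± 0.15 (SE, limma adjusted p = 0.0371), and 10 of 16 other settings gave an adjusted p of 0.05 or more, again with every fit without 1 library among them (0.0618 to 0.105).

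Of 18 sodium-hydrogen exchangers and cation-chloride cotransporters 10 were tested, 1 was higher with RPL22-STAMP and 9 did not pass, with a median of -0.096. *Slc12a5* codes for KCC2, the neuronal potassium-chloride cotransporter that keeps intracellular chloride low. Its EPR was 0.0173, 0.0246 and 0.0247 in the RPL10A-STAMP libraries and 0.0498, 0.0614 and 0.105 in the RPL22-STAMP libraries, so that the lowest RPL22-STAMP library was well above the highest RPL10A-STAMP library. Its log2 fold change was -1.61 ± 0.23 (SE, limma adjusted p = 0.00719), and the adjusted p was under 0.05 in 15 of 16 other settings, the exception being the GC trend removed together with the replicate block (log2 fold change -1.27, adjusted p = 0.0521).

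**Figure D5:**
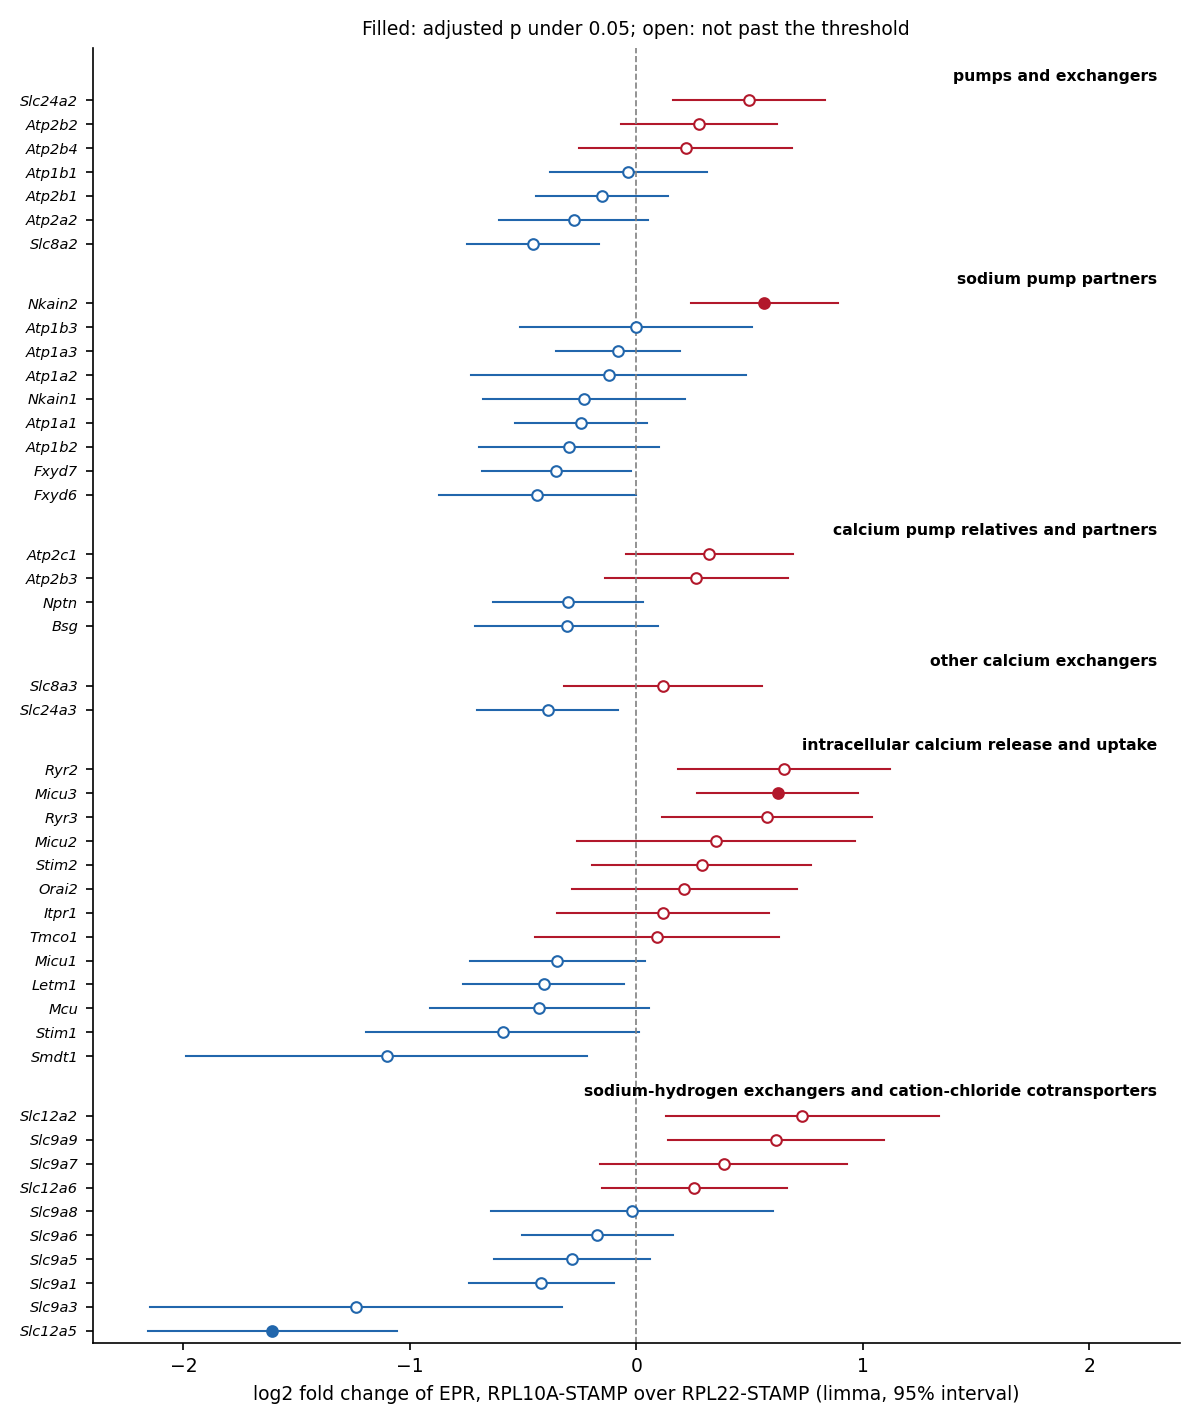
log2 fold changes of EPR, RPL10A-STAMP over RPL22-STAMP, with 95% intervals from limma (horizontal axis), for the 7 tested pump and exchanger genes and the 38 tested genes of the 5 lists around them. Red is higher with RPL10A-STAMP and blue with RPL22-STAMP, and filled points passed an adjusted p of 0.05. *Nkain2*, *Micu3* and *Slc12a5* are the filled points.

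The mean profile of the 7 genes over the 6 libraries, as log2(EPR + 0.01) of the scaled values centred on each gene's mean, was most closely matched by *Htatsf1*, *Slc35b4* and *Ank3*, with Euclidean distances of 0.0606, 0.0848 and 0.0858 and Pearson correlations of 0.94, 0.92 and 0.90 over the 6 libraries. The distances of the 7 genes from this mean were 0.209 for *Atp1b1*, 0.228 for *Atp2b1*, 0.361 for *Atp2a2*, 0.363 for *Atp2b2*, 0.426 for *Atp2b4*, 0.640 for *Slc8a2* and 0.657 for *Slc24a2*. Their log2 fold changes went both ways, 3 above 0 and 4 below, so the mean profile averages opposite differences. *Htatsf1* had an EPR of 0.00179 to 0.00349, below the 0.01 added before the log, so its distance depends on that addition.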

How the data were processed

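EPR was measured by bulk RNA-seq of polyA RNA in 6 libraries. The authors aligned single-end reads to mm10 with STAR, used SAILOR to find C-to-U edits and featureCounts to count reads, and deposited the ratio of edits to reads (EPR) for 31053 genes per library. Edits and reads cannot be recovered from this ratio, so the depth behind each value is unknown. The genes, lists and tests were chosen with earlier results of these data known. Identifiers were matched to GENCODE mouse release 21 (31011 matched, 42 did not), which also gave transcripts and coordinates (GRCm38).

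To scale the libraries, the median EPR of the 8046 genes with edits in every library was taken per library, and values were divided by it and brought back to the EPR scale with the geometric mean of these medians. log2(EPR + 0.01) was fitted with limma 3.58.1 (R 4.3.3, variance trend), which was tested on simulated data, and p-values were Benjamini-Hochberg adjusted over all tested genes, with a threshold of 0.05. Single values were compared by two-sided exact permutation tests. Trends with GC content or length were removed with natural splines of 4 degrees of freedom. Named genes are the 8 pump and exchanger genes, the list genes that passed or else the 2 with the largest values in a list, and the 3 nearest profiles. *Nme7*, *Atp2b3*, *Syn1*, *Map2* and the microglial markers were named besides. Alternatives covered scaling, pseudocount, filter, replicate number as a block, GC content, length and each library left out. Other steps used Python 3.11.15 with scipy 1.17.1, pandas 2.3.3, numpy 2.4.6 and matplotlib 3.10.9.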

Additional observations from a re-analysis of the deposited data

How the results depend on the processing

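In 13 of 16 alternatives no pump or exchanger gene passed, as in the main test. 1 passed without scaling (*Slc24a2*), with upper quartile scaling (*Slc8a2*) and with the length trend removed (*Slc8a2*). Without scaling the median log2 fold change of all genes was 0.18, that of the pump and exchanger genes 0.21, and the signs of *Atp1b1* (0.21), *Atp2a2* (0.0057) and *Atp2b1* (0.093) turned, and 956 genes were called higher with RPL10A-STAMP and 129 with RPL22-STAMP, against 685 and 464. Testing genes edited in at least 3 libraries, or without a filter, let *Slc8a1* enter and gave a median of 0.091. *Atp1b1* was 0.012 with the length trend removed. Relative to the median gene, the difference in level (RPL10A-STAMP minus RPL22-STAMP) was -0.0556 for *Atp1b1* and -0.224 for *Atp2b1*.

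Leaving out each library in turn gave a median of the pump and exchanger genes, and a log2 fold change of *Atp1b1*, of -0.12 to 0.014, above 0 without RPL10A-STAMP replicate 3, RPL22-STAMP replicate 1 or RPL22-STAMP replicate 3. The difference in EPR of *Atp2a2* was -0.00332 to 0.00263, above 0 without RPL10A-STAMP replicate 1, RPL22-STAMP replicate 2 or RPL22-STAMP replicate 3. The log2 difference of the *Atp2b4* to *Atp2b2* ratio was -0.206 to 0.0145, above 0 without RPL22-STAMP replicate 3. The genes called over the whole table, 1149, were 369 to 873, with 667, 428 and 369 without RPL10A-STAMP replicates 1, 2 and 3, and 746 and 609 without RPL22-STAMP replicates 2 and 3. They were 754 among genes edited in at least 3 libraries, 569 without a filter and 663 with the GC trend removed.

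After scaling, same-numbered libraries of the 2 groups did not deviate together (correlations of 0.0437, 0.0464 and -0.00546). Scaling removes a level common to all genes of a library. Before it, replicate 1 had the lowest median EPR in both groups, at 0.0120 with RPL10A-STAMP and 0.00907 with RPL22-STAMP. Whether same-numbered libraries shared a culture or batch was not tested. With the replicate block 603 genes were called, and 227 with the GC trend removed too; the block left 0 of the 7 genes past the threshold. The causes were not tested. Depth per gene is unknown. The RPL22-STAMP values of *Slc8a1* (0.00169, 0.00465 and 0) are of a size that very few edits could give. How far depth limits the values of *Slc8a1* cannot be told.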
